A study of Mus musculus with 32 samples.

Results

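CD4+ T cells stimulated in the presence of XCT790 were compared with unstimulated cells of the same genotype label, to describe which parts of T cell activation were still reached under the inhibitor. The libraries were chosen by their titles alone: 4 KO-labelled libraries stimulated with XCT790 and 4 KO-labelled unstimulated libraries, 8 of the 32 in the series. CD4+ T cells are the helper and regulatory T cell lineage. The cells came from C57BL/6J mice, whose spleen, inguinal and axillary lymph nodes were the source. KO stands for the label Nur77KO, a knockout of Nr4a1, and WT libraries carry the matching wild-type label. How the allele was made, the age of the mice and whether a library pools animals are not given in the sources used here. Stimulation was with antibodies to CD3 and CD28 for 12 h, and XCT790 was used at 10 µg/ml. The labels call the unstimulated group control and do not say whether it was cultured or given a vehicle. Further groups of 4 libraries served for comparison: KO-labelled cells stimulated without an inhibitor, WT unstimulated cells and WT cells stimulated with XCT790.

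T cell receptor and CD28 signals act through the transcription factors NFAT, AP-1 and NF-kappaB. A resting T cell responds by losing its quiescence and homing genes, by making growth factor receptors and cytokines, and by building the ribosomes, mitochondria and biosynthetic enzymes it needs to divide. ERR-alpha, encoded by Esrra, is an orphan nuclear receptor that supports mitochondrial and metabolic genes, and XCT790 is an inverse agonist of it, a ligand that lowers its activity.

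Nr4a1 (chromosome 15, 101253902 to 101274795 in GRCm38) encodes Nur77, a nuclear receptor induced by T cell receptor signals, and is the gene named in the genotype label. Its transcript stood at 86.2, 93.4, 87.2 and 110 CPM (counts scaled to the library's total and its TMM factor) in KO-labelled unstimulated replicates 1 to 4 and at 324, 364, 198 and 252 CPM with XCT790. All 4 stimulated libraries were above all 4 unstimulated ones, and the rise was 1.59 on the log2 scale (SE 0.23, adjusted p = 4.7e-07). The WT means were 71.6 ± 21.4 CPM unstimulated and 178 ± 11.8 CPM with XCT790 (SD, n = 4 each), so the KO-labelled libraries did not have less of this transcript. A transcript can persist where an allele makes no protein, and no source used here gives the deleted part of the gene. For that reason the text speaks of KO-labelled cells.

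The 8 libraries held 17.5 to 21.2 megacounts in genes. T lineage markers were present in every library and summed to 4650 to 4920 CPM unstimulated and 3870 to 4500 CPM with XCT790. RNA of other cells was not constant between the groups. The 22 myeloid and dendritic cell markers summed to 1220 to 3110 CPM in unstimulated cells and to 23.3 to 53.9 CPM with XCT790, with Cd163 at 0 in all 4 XCT790 libraries. B cell markers summed to 697 to 2400 CPM and 141 to 648 CPM, and natural killer cell markers to a mean of 32.7 and 8.6 CPM. The plasma cell list went the other way, from 75.1 to 423 CPM unstimulated to 1800 to 1950 CPM with XCT790. Irf4, which activated T cells also make, is 1 of its 5 genes and rose, while Igj and Sdc1 fell. Without unstimulated replicate 2, the library at 423 CPM, no gene of this list was called lower. In bulk samples, fewer cells of a type and less RNA per cell cannot be told apart. KO-labelled replicate 2 stood apart in several groups: the p53 target Cdkn1a was at 261 CPM in its XCT790 library and at 32.5 to 46.6 CPM in the other three. Nothing in the labels says that replicates came from separate animals, so p-values measure the spread between these libraries, which may be technical.

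The change between unstimulated and XCT790-stimulated cells covered most of the transcriptome. Of 12332 genes tested, 4889 (39.6%) were higher and 4860 (39.4%) were lower with XCT790 at an adjusted p under 0.05. With at least 2-fold change there were 2506 (20.3%) higher and 3132 (25.4%) lower. The median log2 change over all genes was -0.00. Scaling to library totals moved that median to -0.32 and left 3727 genes higher and 6014 lower, and upper-quartile scaling moved it to -0.26 with 3929 higher and 5832 lower. List counts below are to be read against these shares, and small changes against this shift. The share of all genes whose libraries do not overlap is not given here. A lack of overlap, where stated below, therefore describes a gene and does not set it apart from other genes.

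The 8 largest rises among genes with at least 10 CPM and no overlap between libraries were in Crabp2, Fosl1, Ccl22, Serpinb9b, Akr1c18, Il2, Spin4 and Scg2. Ccl22 encodes a chemokine that attracts CCR4-bearing T cells, and it went from 0.508, 0.878, 0.33 and 1 CPM to 90, 53.8, 121 and 218 CPM, 178-fold higher (log2 7.47, SE 0.72, adjusted p = 2e-10). Fosl1, an AP-1 subunit, went from a mean of 0.0631 to 13.5 CPM, and Crabp2, a retinoic acid binding protein, from 0.0729 to 20 CPM. Unstimulated levels of these genes were near the counting floor, so their fold changes depend on few counts. The 8 largest falls were in Cd163, Col14a1, Emr4, Mrc1, Slco2b1, Clec4a3, Siglece and Hfe. Cd163 and Mrc1 are scavenger and mannose receptors of macrophages, Emr4 and Clec4a3 are myeloid receptors, and Col14a1 is a collagen of stromal cells. Mrc1 went from 79.3, 135, 113 and 198 CPM to 0.0534, 0.178, 0.0457 and 0.0511 CPM. Col14a1 was at 14 ± 5.88 CPM unstimulated (SD, n = 4) and at 0 with XCT790, at least 361-fold lower against a floor of 3 counts over the group. Cd163 was at least 372-fold lower on the same floor. The summed myeloid markers named above moved with these genes.

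**Figure D1:**
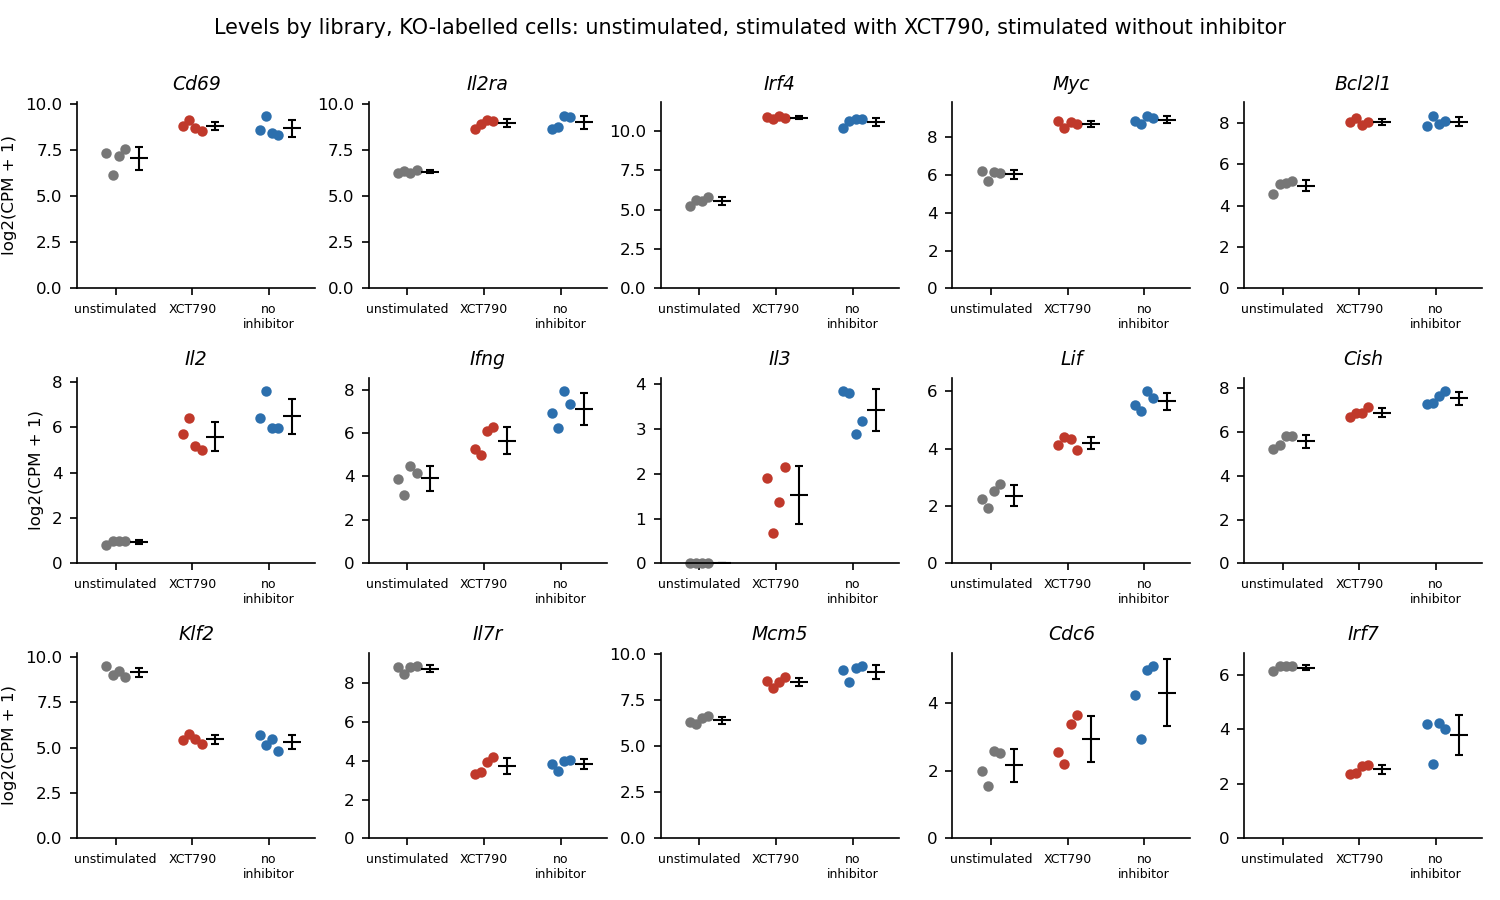
Levels of 15 genes in each KO-labelled library as log2(CPM + 1), for unstimulated cells (grey), cells stimulated with XCT790 (red) and cells stimulated without an inhibitor (blue), with the mean and SD of the 4 libraries beside them. Irf4, Myc, Bcl2l1 and Il2ra are high in both stimulated groups, Klf2 and Il7r are low in both, and Il3, Lif and Irf7 lie lower with XCT790 than without it.

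Early receptors and regulators of activation were reached with XCT790. Of 22 costimulation and activation receptors, 14 rose, 2 fell (Slamf6 and Cd86) and 6 were not called, with a median log2 change of 0.91. Cd69, an early activation antigen that retains lymphocytes in tissue, stood at 159, 68.7, 145 and 187 CPM unstimulated and at 452, 555, 417 and 377 CPM with XCT790 (log2 1.69, SE 0.24, adjusted p = 2.6e-07). Every stimulated library was above every unstimulated one. Il2ra, the alpha chain of the interleukin-2 receptor, went from 75.7, 81.1, 76.7 and 86.3 CPM to 411, 494, 567 and 553 CPM, 6.33-fold higher (adjusted p = 2.4e-14). Tfrc, the transferrin receptor that brings iron into growing cells, rose 16-fold, from 38.3 ± 5.34 to 615 ± 217 CPM (SD, n = 4 each). Tnfrsf9, the costimulatory receptor 4-1BB, rose 6.04-fold to 342, 360, 351 and 474 CPM.

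Of 11 inhibitory receptors 1 rose (Btla), 5 fell and 5 were not called, with a median of -0.44. Among those not called were Ctla4, at 88.6 ± 18.4 and 73.6 ± 13.4 CPM, Pdcd1, at 94.5 ± 31.6 and 96.2 ± 30.3 CPM, and Lag3, at 141 ± 41.5 and 180 ± 38.9 CPM (unstimulated and XCT790, SD, n = 4 each). These receptors dampen T cell responses and their libraries overlapped between the groups. With the replicate number as a block, Ctla4 was called lower (adjusted p = 0.011) and Lag3 higher (adjusted p = 0.04). Of the 5 that fell, Cd244 and Entpd1 are also made by natural killer and myeloid cells.

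The 34 activation transcription factors split, with 15 higher, 16 lower and a median of -0.23. Irf4, which scales with receptor signal strength and drives effector growth, went from 35.6, 47, 46.2 and 54.7 CPM to 1840, 1680, 1930 and 1780 CPM, 39.4-fold higher (log2 5.30, SE 0.14, adjusted p = 1.4e-21). Its groups lay far apart. Myc, the growth regulator, went from 73, 50.4, 69.8 and 67.4 CPM to 453, 355, 444 and 407 CPM (log2 2.67, SE 0.14, adjusted p = 4.8e-16). The other NR4A receptors also rose, Nr4a2 from 4.42 ± 0.723 to 13.3 ± 0.955 CPM and Nr4a3 from 13.1 ± 0.791 to 59.5 ± 4.96 CPM (SD, n = 4 each). NF-kappaB subunits Rel, Nfkb1, Nfkb2 and Relb were among those higher. Several immediate-early genes, which are also induced by tissue handling, were lower at 12 h. Fos, an AP-1 subunit, went from 597, 417, 558 and 711 CPM to 9.77, 12.7, 9.86 and 7.62 CPM, 57.2-fold lower (adjusted p = 2.9e-15), and Fosb, Jun and Junb fell with it. Egr1 was at 139 ± 7.48 and 95.6 ± 23.4 CPM, a fall of -0.54 on the log2 scale (adjusted p = 0.032). It was not called without XCT790 replicate 1, 3 or 4 (adjusted p of 0.0555, 0.0507 and 0.115).

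**Figure D2:**
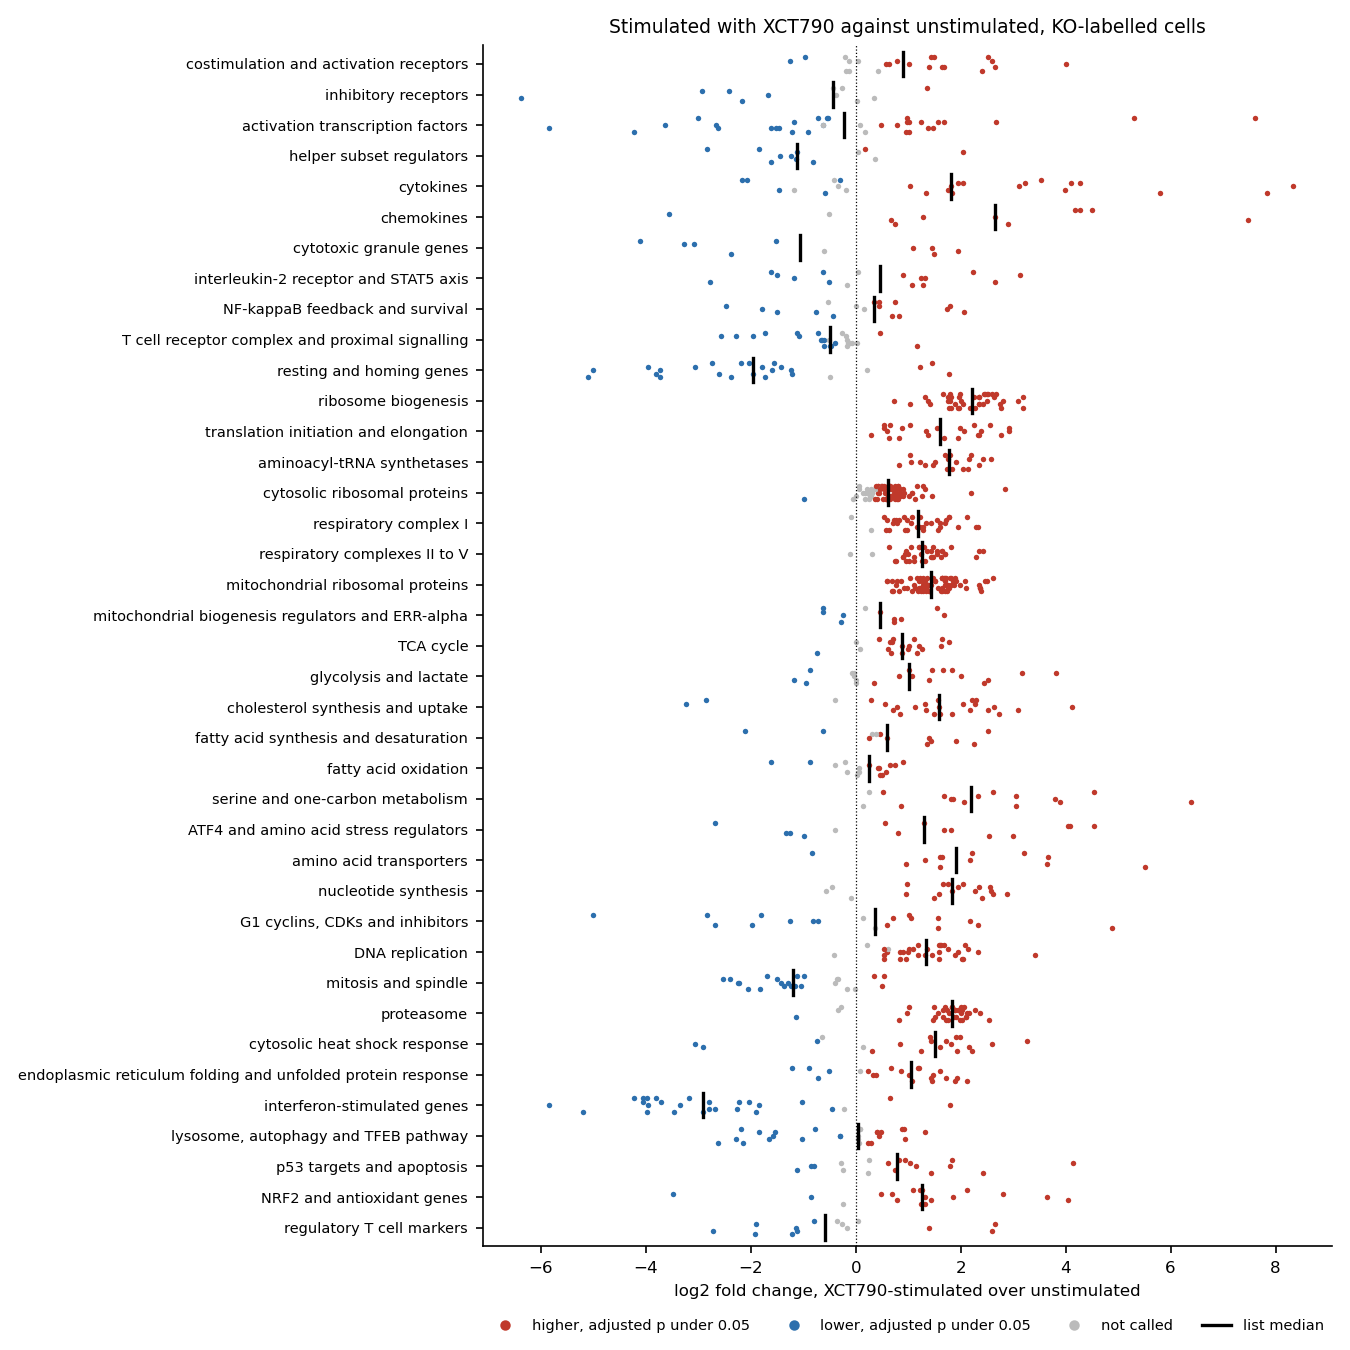
Log2 fold change of each tested member of the gene lists, cell type markers left out, between KO-labelled cells stimulated with XCT790 and unstimulated cells. Points are genes, red where higher and blue where lower at an adjusted p under 0.05, grey where not called, and black bars are list medians: ribosome biogenesis (2.22) and proteasome (1.83) lie to the right and interferon-stimulated genes (-2.90) to the left.

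Cytokine and chemokine genes rose from low levels. Of 25 tested cytokine genes 16 rose, each at least 2-fold, 5 fell and 4 were not called, with a median of 1.81. Il2 (chromosome 3, 37120713 to 37125954), the T cell growth factor, stood at 0.743, 0.966, 0.991 and 0.96 CPM unstimulated and at 52, 84.7, 35.5 and 30.9 CPM with XCT790. The lowest stimulated library was far above the highest unstimulated one, and the rise was 55.2-fold (log2 5.79, SE 0.47, adjusted p = 6.1e-12). Ifng, encoding interferon-gamma, went from 13.6, 7.73, 21.6 and 16.8 CPM to 37.9, 30.8, 67 and 76 CPM, 3.54-fold higher (adjusted p = 6.5e-05). Tnf, an inflammatory cytokine, rose 3.84-fold from 10.5 ± 0.686 to 40.5 ± 13.2 CPM (SD, n = 4 each). Lif, a cytokine of the interleukin-6 family, rose 4.14-fold to 16.4, 20.2, 19 and 14.5 CPM. Il3, a growth factor for blood cell precursors, had no count in any unstimulated library and stood at 2.78, 0.592, 1.6 and 3.43 CPM with XCT790, at least 66.8-fold higher against 3 counts over the group. Il21, a follicular helper cytokine, fell from 37.5 ± 13.5 to 8.84 ± 3.38 CPM (adjusted p = 6.8e-06).

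Of 11 chemokine genes 9 rose and 1 (Ccl5) fell, with a median of 2.65. Ccl4, an inflammatory chemokine, stood at 5.32, 4.13, 6.61 and 6.24 CPM unstimulated and at 71, 183, 74.5 and 75.1 CPM with XCT790 (log2 4.17, SE 0.50, adjusted p = 1.7e-08). Xcl1, which draws cross-presenting dendritic cells, rose 19.3-fold to 22.2, 85.2, 30.9 and 35.8 CPM. Replicate 2 was the highest of the XCT790 libraries for both genes, and the other three were still above all unstimulated ones. The 10 cytotoxic granule genes split, with 4 higher and 5 lower. Prf1, the pore-forming perforin, fell from 34.3, 29.4, 26.3 and 26.4 CPM to 3.47, 3.85, 3.24 and 3.17 CPM, 8.48-fold lower (adjusted p = 1.4e-14). Gzmb, granzyme B, was at 7.65 ± 0.766 and 16.4 ± 10.1 CPM (log2 1.10, adjusted p = 0.0082), and without XCT790 replicate 4 it was not called (log2 0.57, adjusted p = 0.136). Summed natural killer markers went from 32.7 to 8.6 CPM beside the falls in this list, and their part in it was not tested.

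The Il2 promoter, the best-studied target of NFAT and AP-1 in T cells, is printed because its gene showed one of the largest rises. The 250 bases before the RefSeq start of Il2 (GRCm38.p6, minus strand, chr3:37125955-37126204) read 5′ to 3′ with matches to the NFAT core GGAAAA on either strand in capitals.
Il2: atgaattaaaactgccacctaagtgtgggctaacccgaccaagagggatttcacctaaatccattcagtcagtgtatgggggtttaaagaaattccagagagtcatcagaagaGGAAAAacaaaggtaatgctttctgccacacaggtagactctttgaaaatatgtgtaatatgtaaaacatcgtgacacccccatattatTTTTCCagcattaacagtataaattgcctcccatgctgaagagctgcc
The NFAT core occurred in 8 of 23 cytokine promoters and in 21.5% of the promoters of 9393 tested genes with an entry in the RefSeq promoter table. The AP-1 site TGANTCA occurred in 4 of 23 and in 5.36% of all, and the NF-kappaB consensus site in 3 of 23 and in 0.5% of all, each searched on both strands. The printed Il2 stretch has no match to the AP-1 or NF-kappaB letters. A match shows letters and no binding.
The AP-1 match in the promoter of Lif, the cytokine gene compared with stimulated cells below, lies in the window chr11:4257318-4257386 (plus strand) and is in capitals.
Lif: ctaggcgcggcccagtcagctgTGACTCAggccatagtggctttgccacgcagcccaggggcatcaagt

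Genes of the interleukin-2 receptor and STAT5 axis split: of 16, 8 rose and 6 fell, with a median of 0.47, beside 39.6% and 39.4% of all genes. Bcl2l1, encoding the survival protein Bcl-xL, went from 22.7, 31.7, 32.8 and 35.2 CPM to 264, 307, 240 and 265 CPM, 8.81-fold higher (log2 3.14, SE 0.13, adjusted p = 5.6e-18). Cish, a STAT5 target that dampens cytokine signals, rose 2.51-fold to 101, 116, 116 and 142 CPM, and Pim1, a STAT5-induced kinase, rose 2.43-fold to 313, 329, 304 and 334 CPM. All 3 genes had no overlap between the groups. Of 17 genes of NF-kappaB feedback and survival 9 rose and 5 fell (5 and 7 under library totals). Nfkbia, the inhibitor IkB-alpha, was at 276 ± 37.3 and 308 ± 32.3 CPM (adjusted p = 0.23). Tnfaip3, the ubiquitin-editing inhibitor A20, stood at 607, 116, 530 and 543 CPM unstimulated and at 117, 123, 150 and 130 CPM with XCT790, a fall of -1.79 on the log2 scale (adjusted p = 1.5e-05). Replicate 2 was the low library among the unstimulated ones and overlapped the stimulated range. Birc3, an inhibitor of apoptosis, was at 92.2 ± 3.93 and 117 ± 12.8 CPM and its call was lost under library totals (adjusted p = 0.802).

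Genes of the resting state fell together. Of 25 resting and homing genes 20 fell, each at least 2-fold, 3 rose (Ccr7, Bach2 and Slfn2) and 2 were not called, with a median of -1.96. Il7r, the receptor for the survival cytokine interleukin-7, went from 455, 359, 463 and 471 CPM to 9.13, 9.71, 14.3 and 17.1 CPM, 34.6-fold lower (log2 -5.11, SE 0.46, adjusted p = 6.2e-11). Klf2, a factor that maintains quiescence and trafficking genes, went from 714, 505, 591 and 481 CPM to 42.4, 53.2, 43.1 and 35.1 CPM, 13.2-fold lower. No library of either group lay near the other group for these genes. S1pr1, which lets T cells leave lymphoid tissue, fell 13.9-fold. Tcf7, the stemness factor TCF1, fell 3-fold from 1390 ± 186 to 462 ± 39.5 CPM. Ccr7, a lymph node homing receptor, rose 3.4-fold to 1790, 1390, 1380 and 1610 CPM (adjusted p = 1.2e-11).

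Of 25 genes of the T cell receptor complex and its proximal signalling, 14 fell and 2 rose, with a median of -0.49 (22 fell and 1 rose under library totals). Cd4 fell from 904 ± 26.4 to 428 ± 62.5 CPM, Cd3e from 449 ± 11.1 to 295 ± 24 CPM and Lck, the kinase bound to CD4, from 949 ± 27.7 to 604 ± 66.8 CPM (SD, n = 4 each). Helper subset regulators were mostly lower, 8 of 12, with a median of -1.12. Tbx21, the T helper 1 factor T-bet, stood at 13.1, 21.8, 20.2 and 15.5 CPM unstimulated and at 80.2, 28.6, 95.2 and 89 CPM with XCT790 (log2 2.05, SE 0.31, adjusted p = 7.3e-07), and replicate 2 was the lowest of the 4 stimulated libraries. Gata3, the T helper 2 factor, fell 3.08-fold, and Foxp3, the regulatory T cell factor, fell 2.2-fold to 32.8, 51.9, 69.4 and 73.7 CPM. Of 14 regulatory T cell markers 7 fell and 3 rose (Il2ra, Tnfrsf18 and Tnfrsf9, which activated conventional cells also make).

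Growth machinery rose nearly without exception. All 42 ribosome biogenesis genes rose, with a median log2 change of 2.22 and a range of 0.73 to 3.19. Nop56, a core protein of the box C/D particles that modify ribosomal RNA, went from 67, 53.3, 55.2 and 56.2 CPM to 289, 270, 290 and 280 CPM (log2 2.28, SE 0.10, adjusted p = 5.3e-18). Ncl, nucleolin, rose 3.73-fold to 2120, 2220, 2770 and 2230 CPM. All 24 translation factors and all 20 aminoacyl-tRNA synthetases rose, with medians of 1.61 and 1.78. Eif4e, which binds the messenger RNA cap, rose 4.2-fold, and Eif4ebp1, the inhibitor of Eif4e that mTOR controls, rose 6.78-fold from 8.76 ± 1.07 to 59.4 ± 5.47 CPM. Cytosolic ribosomal protein genes moved less, with 57 of 78 higher, 1 lower (Rps27) and a median of 0.61, of which 11 changed at least 2-fold. Rps6 was at 749 ± 29.3 and 1020 ± 140 CPM (log2 0.45, adjusted p = 0.0057) and was not called under library totals (log2 0.13, adjusted p = 0.251). Of 37 proteasome genes 34 rose, with a median of 1.83. Psma5, a core alpha subunit, rose 5.81-fold, while Psmb8, an interferon-inducible subunit, was at 524 ± 56 and 433 ± 83.2 CPM (adjusted p = 0.19).

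Mitochondrial genes, among which are known ERR-alpha targets, also rose with the inhibitor present. Of 36 tested complex I genes 34 rose and 2 were not called (median 1.19), of 39 genes of complexes II to V 37 rose and 2 were not called (median 1.27), and all 77 mitochondrial ribosomal protein genes rose (median 1.44). Cycs, cytochrome c, went from 13, 12.1, 12.9 and 14 CPM to 70.6, 70.4, 51 and 71.3 CPM, 5.06-fold higher (log2 2.34, SE 0.13, adjusted p = 1.5e-15). Atp5b, the catalytic subunit of ATP synthase, went from 835, 859, 857 and 953 CPM to 2780, 2720, 2030 and 2690 CPM, 2.91-fold higher. Replicate 3 was the lowest XCT790 library for both genes and was still above every unstimulated one. Ndufa9, a complex I subunit, rose 2.09-fold and Mrpl12, a mitochondrial ribosomal protein, rose 5.14-fold. Of 20 genes of the TCA cycle and pyruvate entry 17 rose and 1 fell (median 0.89), and Idh3a, a subunit of isocitrate dehydrogenase, rose 3.1-fold from 62.5 ± 4.56 to 194 ± 18 CPM.

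Esrra itself (chromosome 19, 6910977 to 6922048) stood at 34.3, 41, 35 and 32 CPM unstimulated, at 26.2, 26.7, 16.9 and 22.9 CPM with XCT790 and at 42.9, 33.7, 32 and 32.6 CPM in stimulated cells without an inhibitor. The XCT790 libraries were below all libraries of both other groups. The log2 change was -0.62 against unstimulated cells (SE 0.13, adjusted p = 0.00014) and -0.61 against stimulated cells (SE 0.13, adjusted p = 0.0041). Of the 11 tested regulators of mitochondrial biogenesis 6 rose and 4 fell. Pprc1, a growth-induced coactivator, rose 3.2-fold, Tfam, which packages mitochondrial DNA, rose 1.66-fold, and Ppargc1b, an ERR-alpha coactivator, fell from 6.81 ± 0.6 to 4.4 ± 0.577 CPM (adjusted p = 0.0056). The ERR element TNAAGGTCA, searched on both strands of the 250 bases before the start, was found in 1 of 32 complex I promoters, 1 of 30 promoters of complexes II to V, 0 of 18 of the TCA cycle, 0 of 15 of fatty acid oxidation, 0 of 9 of mitochondrial biogenesis regulators and 0.852% of all 9393.

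Carbon and lipid pathways rose in most members. Of 21 glycolysis and lactate genes 13 rose and 3 fell (median 1.02; 6 fell under library totals). Hk2, the inducible hexokinase, went from 3.4, 5.97, 5.41 and 8.11 CPM to 78.1, 64.7, 94.7 and 82.8 CPM, 14-fold higher (adjusted p = 1.6e-12). Ldha, lactate dehydrogenase A, rose 4.03-fold and Slc2a1, the glucose transporter GLUT1, rose 2.63-fold. Of 16 genes of serine and one-carbon metabolism 14 rose, with a median of 2.20: Shmt2, the mitochondrial serine hydroxymethyltransferase, rose 8.34-fold from 70 ± 2.5 to 584 ± 80.2 CPM and Phgdh, the first enzyme of serine synthesis, rose 6.13-fold. Of 12 amino acid transporters 11 rose, among them Slc7a5, the large neutral amino acid transporter, which rose 9.22-fold to 538, 481, 440 and 514 CPM. Of 19 nucleotide synthesis genes 16 rose, among them Ppat, the first enzyme of purine synthesis, 4.82-fold. Of 26 cholesterol synthesis and uptake genes 23 rose and 2 fell. Hmgcs1, an early enzyme of the pathway, rose 4.92-fold to 252, 165, 255 and 240 CPM, and the 2 that fell, Abca1 and Abcg1, encode cholesterol exporters. Fatty acid oxidation showed no common direction, with 9 of 17 higher, 2 lower and a median of 0.26 that was -0.06 under library totals. Cpt1a, the carnitine transferase that admits fatty acids to mitochondria, fell from 64.1, 75.6, 86.2 and 78.9 CPM to 19.8, 26.4, 26.6 and 27.3 CPM, 3.05-fold lower (adjusted p = 3.5e-09).

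Entry into the cell cycle was partly reached at 12 h. Ccnd2, cyclin D2, rose 2.07-fold from 485, 592, 514 and 514 CPM to 1150, 1000, 1100 and 1110 CPM, and its partner kinase Cdk4 rose 4.49-fold from 117 ± 6.77 to 527 ± 57.2 CPM. Cdkn1b, encoding the inhibitor p27, fell from 179, 152, 167 and 167 CPM to 43.9, 50.5, 47 and 48.1 CPM, 3.51-fold lower (adjusted p = 1.1e-11). Over all 19 G1 genes 9 rose and 8 fell. Of 34 DNA replication genes 31 rose and 3 were not called (median 1.34). Mcm5, a subunit of the replicative helicase, went from 77.4, 74.2, 92.3 and 97.1 CPM to 373, 291, 356 and 430 CPM (log2 2.09, SE 0.15, adjusted p = 4.3e-13), and Mcm2 rose 3.87-fold. The libraries of the groups did not overlap for either gene. Mitosis and spindle genes went the other way, with 16 of 24 lower, 3 higher and a median of -1.19. Mki67, a proliferation marker, was at 25.1, 14.5, 26.8 and 19 CPM unstimulated and at 2.08, 2.25, 8.26 and 3.38 CPM with XCT790, a fall of -2.40 (SE 0.69, adjusted p = 0.0024). Cdk1, the mitotic kinase, was at 7.46 ± 2.71 and 7.32 ± 3.1 CPM. The 3 mitosis genes that rose (Aurka, Cdc20 and Mad2l1) were not called without unstimulated replicate 1.

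Stress pathways also moved. Of 20 heat shock and chaperone genes 15 rose and 3 fell, and Hspd1, the mitochondrial chaperonin, rose 9.58-fold from 132 ± 9.8 to 1270 ± 78.3 CPM. Of 22 genes of endoplasmic reticulum folding and the unfolded protein response 17 rose and 4 fell, and Hspa5, the chaperone BiP, rose 2.71-fold. Of 18 NRF2 and antioxidant genes 15 rose and 2 fell. Txnrd1, thioredoxin reductase, rose 3.64-fold, and Hmox1, heme oxygenase, which red pulp macrophages make in quantity, fell from 154, 241, 212 and 379 CPM to 11.6, 36.1, 16 and 24.1 CPM. Of 27 lysosome and autophagy genes 10 rose and 12 fell, with a median of 0.04 that was -0.27 under library totals. The cathepsins Ctsb, Ctsd, Ctsl and Ctss, which macrophages express strongly, were among the 12. The summed myeloid markers fell from 2070 to 39.7 CPM beside these genes, and their part was not tested. Of 18 p53 targets and apoptosis genes 11 rose and 3 fell. Ccng1, a p53 target, stood at 295, 673, 254 and 285 CPM with XCT790 against 226 ± 11.3 CPM unstimulated (log2 0.74, adjusted p = 0.017), and without XCT790 replicate 2 it was not called (log2 0.30, adjusted p = 0.271). Bbc3, encoding the death inducer PUMA, stood at 7.64, 43.8, 7.99 and 8.59 CPM with XCT790 and at 19.9 ± 2.56 CPM unstimulated. Replicate 2 alone was above the unstimulated range. Bbc3 was not called (log2 -0.24, adjusted p = 0.72) but was lower with the replicate block (log2 -0.84, adjusted p = 0.029).

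Interferon-stimulated genes fell more than any other activation, metabolic or stress list here, by the median: 24 of 27 fell, 23 of them at least 2-fold, 2 rose (Gbp2 and Bst2) and the median was -2.90. Irf7, the factor that amplifies type I interferon, went from 69.1, 78.4, 78 and 78.3 CPM to 4.17, 4.32, 5.3 and 5.52 CPM, 15.7-fold lower (log2 -3.97, SE 0.32, adjusted p = 6.8e-12). Isg15, a ubiquitin-like modifier, went from 25.9, 35, 28.5 and 32.9 CPM to 8.07, 8.17, 8.36 and 9.31 CPM, 3.61-fold lower. Mx1, an antiviral GTPase, went from 3.56 ± 0.7 to 0.0899 ± 0.0215 CPM. No stimulated library reached the unstimulated range for any of the 3. Myeloid markers, whose cells carry many interferon-stimulated transcripts, fell in the same comparison (22 of 22, median -5.59), and their part was not tested.

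To place this activation beside the response without an inhibitor, the same unstimulated libraries were compared with KO-labelled cells stimulated alone. That comparison called 4850 genes higher (39.3%) and 5224 lower (42.4%). It shares its unstimulated libraries with the one above, so the values are only set side by side: median log2 changes with and without XCT790 were 1.81 and 2.42 for cytokines, 2.65 and 3.37 for chemokines, 2.22 and 2.39 for ribosome biogenesis, 1.44 and 1.70 for mitochondrial ribosomal proteins, 1.34 and 1.88 for DNA replication, -1.19 and -0.40 for mitosis, -1.96 and -2.23 for resting genes, and -2.90 and -1.88 for interferon-stimulated genes.

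The difference itself was tested by contrasting cells stimulated with XCT790 and without it. At an adjusted p under 0.05, 767 genes (6.22%) were higher and 626 (5.08%) were lower with XCT790, of which 69 (0.56%) and 77 (0.624%) changed at least 2-fold. With only these 8 libraries in the fit the counts were 140 and 100, and with the replicate number as a block they were 1363 and 1279. Leaving out stimulated replicate 1 gave 443 higher and 343 lower genes, leaving out XCT790 replicate 3 gave 472 and 306, and leaving out stimulated replicate 4 gave 602 and 377. Under DESeq2 size factors 614 were higher and 869 lower. Myeloid markers summed to a mean of 39.7 CPM with XCT790 and 40 CPM without it, and B cell markers to 311 and 351 CPM.

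**Figure D3:**
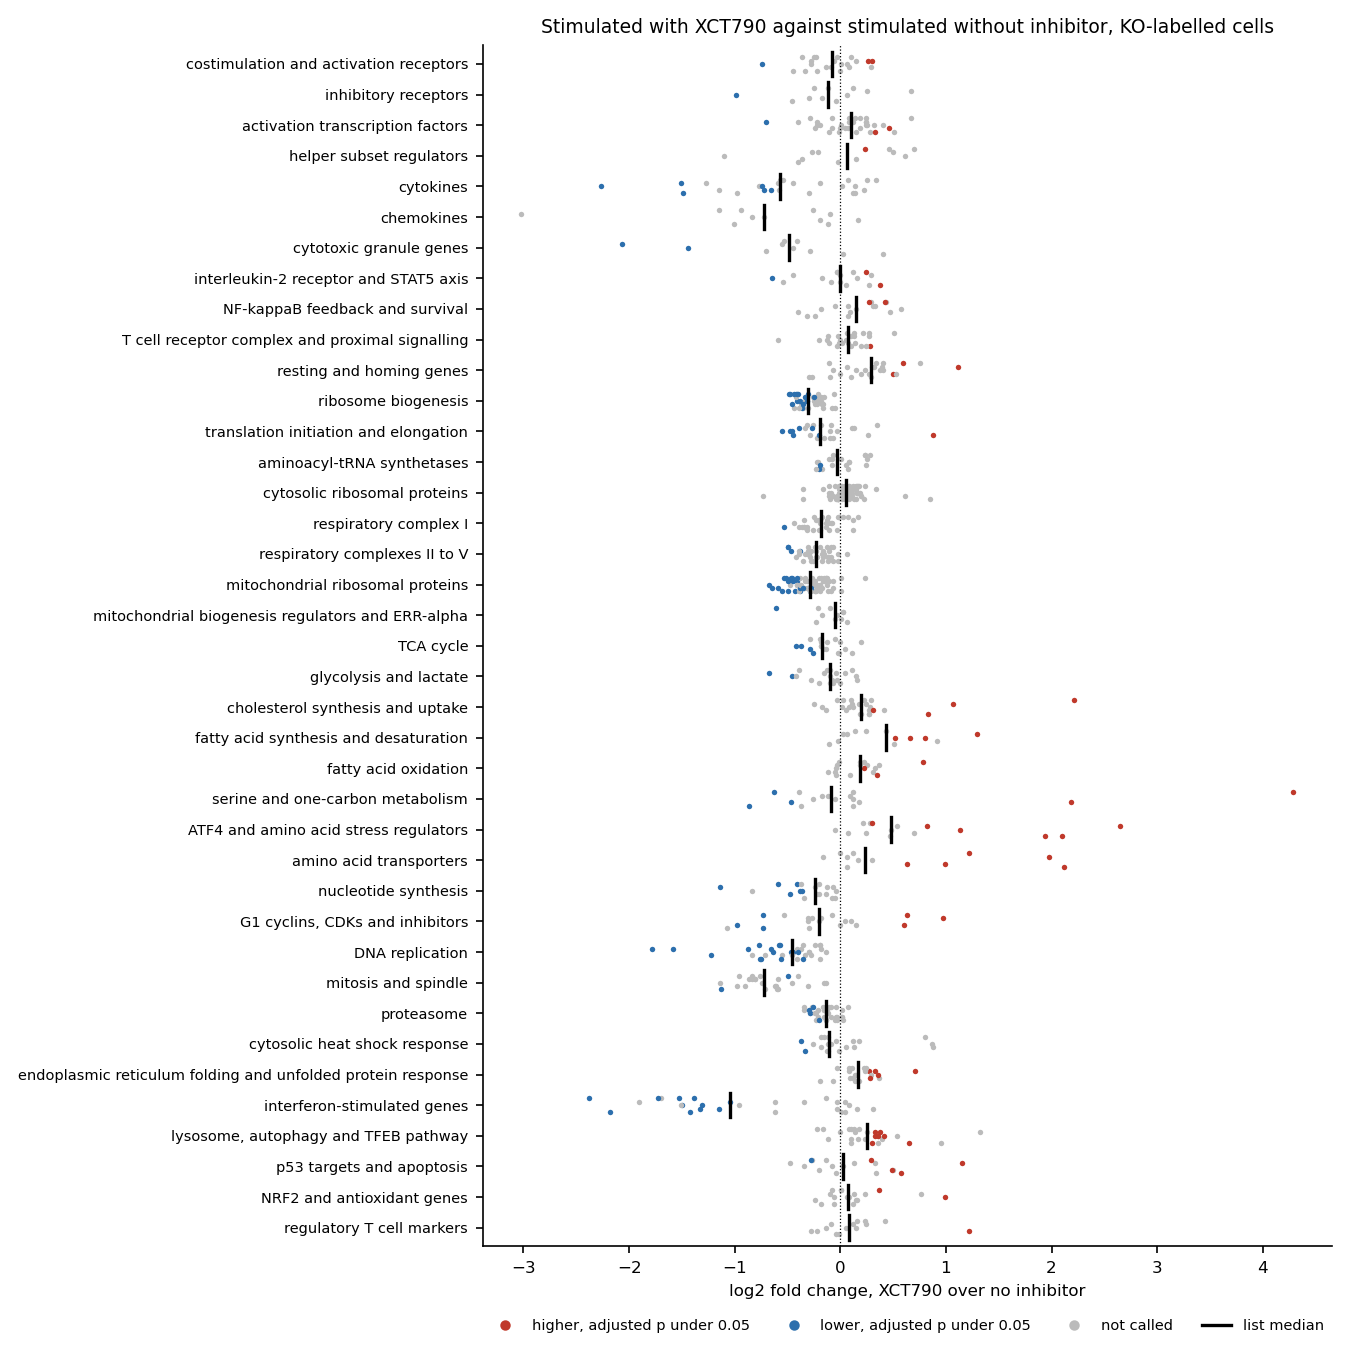
Log2 fold change of each tested member of the same lists between KO-labelled cells stimulated with XCT790 and without an inhibitor, with points and bars as in the plot of the lists against unstimulated cells. Most points lie near 0; the interferon list has its median at -1.04, and single members of the ATF4, amino acid transporter and one-carbon lists reach 2 or more.

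Of 25 cytokine genes 6 were lower with XCT790 (Il3, Lif, Ifng, Lta, Tnfsf14 and Fasl), and the count was 3 without XCT790 replicate 3 or 4 or stimulated replicate 2 and 8 without XCT790 replicate 2. Lif stood at 44.8, 39.2, 63 and 52.9 CPM without the inhibitor, above its 4 XCT790 libraries, and was 2.85-fold lower with it (log2 -1.51, SE 0.21, adjusted p = 3.8e-05). Ifng stood at 120, 73.4, 242 and 162 CPM without the inhibitor and was 2.82-fold lower (log2 -1.49, SE 0.36, adjusted p = 0.008), with 1 XCT790 library above the lowest of them. Il3 stood at 13.4, 13, 6.45 and 8.11 CPM and was 4.84-fold lower (adjusted p = 0.0052). Il2 stood at 84.2, 192, 62.3 and 61.8 CPM without the inhibitor. It was 1.97-fold lower and not called (adjusted p = 0.063), but it was called with the replicate block (adjusted p = 8.2e-05). The same held for Tnf (log2 -0.45, adjusted p = 0.27, and 0.038 with the block). Of the 11 chemokine genes 0 were called by edgeR (median -0.72), with 4 lower at an unadjusted p under 0.05. DESeq2 and limma-voom each called 1 lower, edgeR called 4 lower with the block, 3 without XCT790 replicate 2 and 1 without stimulated replicate 2. Among them Ccl4 was not called without the block (adjusted p = 0.16) but was lower with it (0.0059), and so was Xcl1 (0.16 and 0.0039). Gzmb was 2.72-fold lower (adjusted p = 0.0099), and it was not called without stimulated replicate 4 (adjusted p = 0.0724). Zbtb32, a repressor induced by activation, was 2.33-fold lower, at 6.36, 11, 8.45 and 9.21 CPM against 18.6, 26.1, 19 and 18.1 CPM (adjusted p = 0.0021).

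Receptors and factors of activation differed little between the stimulated groups. Cd69, Il2ra, Irf4, Myc and Bcl2l1 were not called, with log2 differences of 0.08, -0.09, 0.24, -0.22 and -0.00 and SEs of 0.23, 0.16, 0.12, 0.13 and 0.12. Of 22 receptors 2 were higher (Cd27 and Cd5), 0 without stimulated replicate 3 and 1 without XCT790 replicate 3 or 4 or stimulated replicate 1. The transferrin receptor, Tfrc, was the 1 that was lower (log2 -0.74, adjusted p = 0.049), and it was not called without XCT790 replicate 1, 3 or 4 (adjusted p of 0.119, 0.152 and 0.123) or without stimulated replicate 1 or 2 (0.0618 and 0.202). Of 34 activation transcription factors 2 were higher (Xbp1 and Relb) and 1 was lower (Irf8). Egr1 was at 60.3 ± 16.7 CPM without the inhibitor and was not called (log2 0.67, adjusted p = 0.054), but it was called higher with the block (adjusted p = 0.00088). Birc3 was 1.34-fold higher with XCT790 (adjusted p = 0.0045). Of 25 resting genes 3 were higher, among them Pik3ip1, an inhibitor of PI3 kinase. That count was 0 without XCT790 replicate 1 or 4 and 1 without XCT790 replicate 3 or stimulated replicate 1.

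By their medians, growth and replication lists lay slightly lower with XCT790. Counts are to be read beside the 5.08% of all genes that were called lower. Of 42 ribosome biogenesis genes 15 were lower, none by 2-fold, with a median of -0.31 against 0.02 for all genes, with 8 lower without stimulated replicate 1 and 9 without XCT790 replicate 4. Nop56 stood at 383, 309, 391 and 362 CPM without the inhibitor, above its 4 XCT790 libraries (log2 -0.36, SE 0.09, adjusted p = 0.012). Eif4e was 1.39-fold lower (adjusted p = 0.0041), while Eif4ebp1 was 1.84-fold higher (adjusted p = 0.0053). Of 77 mitochondrial ribosomal protein genes 22 were lower (median -0.29), a count that was 6 without XCT790 replicate 3 or stimulated replicate 1, 14 without XCT790 replicate 4 and 35 without stimulated replicate 3. In complex I, 1 of 36 genes was lower (median -0.18), a share no higher than that of all genes. The complex I count was 0 without XCT790 replicate 1, 3 or 4 or stimulated replicate 1 or 4. It was 3 without stimulated replicate 3. In complexes II to V 4 of 39 were lower (median -0.23), with 9 under the block. That count was 0 without XCT790 replicate 3 or stimulated replicate 1, 1 without XCT790 replicate 4, 2 without stimulated replicate 2 or 4 and 9 without stimulated replicate 3. The TCA cycle list had 4 of 20 genes lower and 0 higher, with 4 to 5 lower whichever single library was left out. Idh3a was 1.34-fold lower (adjusted p = 0.0074). Of 34 DNA replication genes 16 were lower (median -0.46), with 9 without stimulated replicate 1, 10 without XCT790 replicate 2 or stimulated replicate 4 and 28 without stimulated replicate 2. Cdc6, which loads the replicative helicase, stood at 17.8, 6.67, 30.2 and 33 CPM without the inhibitor and at 4.91, 3.55, 9.32 and 11.6 CPM with it, 2.98-fold lower (adjusted p = 0.0087). Its rise from 3.64 ± 1.44 CPM unstimulated (log2 1.01, adjusted p = 0.022) was not called without unstimulated replicate 1 or 2 or XCT790 replicate 3 or 4 (log2 0.90, 0.78, 0.85 and 0.71). Mcm5 was 1.49-fold lower (adjusted p = 0.0098) and Cdkn1b 1.55-fold higher (adjusted p = 0.007). Of 24 mitosis genes 2 were lower (median -0.72), a share near that of all genes, and 16 were lower with the block. The count was 0 without XCT790 replicate 1, 2 or 3 or stimulated replicate 1 or 4, 1 without stimulated replicate 3 and 11 without stimulated replicate 2.

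Interferon-stimulated genes were lower with XCT790 than without it, while summed myeloid markers were alike in the 2 groups (39.7 and 40 CPM): 11 of 27, each at least 2-fold, with a median of -1.04. Irf7 stood at 17.4, 5.56, 17.7 and 15 CPM without the inhibitor, and even its low replicate 2 was above the 4 XCT790 libraries by a small margin (log2 -1.53, SE 0.31, adjusted p = 0.0022). Isg15 stood at 35.6, 13.5, 23.8 and 23.3 CPM and was 2.84-fold lower (adjusted p = 0.00053). Isg20, a nuclease that degrades viral RNA, was 2.51-fold lower (adjusted p = 0.011; 0.0513 without stimulated replicate 2). Natural killer markers summed to 8.6 CPM with XCT790 and 17.4 CPM without it, and their part was not tested.

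Several genes of the amino acid response were higher with XCT790. ATF4 is a transcription factor whose translation rises when amino acids are short or protein folding is disturbed, and its targets include enzymes and transporters of amino acids. The Atf4 transcript did not differ by the test, at 336 ± 54.9 CPM with XCT790 and 348 ± 123 CPM without it (log2 -0.05, SE 0.18). Of 15 tested ATF4 and amino acid stress regulators 6 were higher (Chac1, Gpt2, Trib3, Ddit3, Pycr1 and Cebpg), with a median of 0.48. The count was 4 without XCT790 replicate 3 and 9 with the block. Of 12 amino acid transporters 5 were higher (Slc7a3, Slc6a9, Slc1a4, Slc7a11 and Slc38a2), and 3 without XCT790 replicate 3 or 4 or stimulated replicate 1, 3 or 4. Related lists did not share this direction. Serine and one-carbon metabolism had 2 of 16 genes higher and 3 lower, and aminoacyl-tRNA synthetases had 0 of 20 higher and 2 lower. Beside these counts, 6.22% of all genes were higher and 5.08% were lower.

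Promoter windows with a match to the ATF4-C/EBP composite element TGATGNAA are shown for genes of these pathways, with the match in capitals and 40 bases on either side where the 250-base stretch allows. They are read 5′ to 3′ on the gene's strand from RefSeq (GRCm38.p6).
Chac1 (plus strand, chr2:119351009-119351096): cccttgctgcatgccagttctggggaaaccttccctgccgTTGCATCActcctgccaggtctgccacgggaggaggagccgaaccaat
Asns (minus strand, chr6:7693210-7693272): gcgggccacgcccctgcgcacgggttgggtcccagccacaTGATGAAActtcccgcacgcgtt
Slc7a11 (minus strand, chr3:50443632-50443719): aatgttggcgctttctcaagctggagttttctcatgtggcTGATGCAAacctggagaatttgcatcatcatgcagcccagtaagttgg
Pck2 (plus strand, chr14:55540123-55540210): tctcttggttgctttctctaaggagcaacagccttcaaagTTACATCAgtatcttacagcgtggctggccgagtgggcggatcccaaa
Chac1 and Pck2 carry the element on the opposite strand, and Slc7a11 has a second match that is left in lower case. Only promoters with a match are printed, and Pck2 belongs to none of the lists. Gpt2 and Ddit3 had no match, while named genes outside these pathways, such as Esrra, Idi1 and Tnfaip3, had one. The element occurred in 3 of 15 promoters of the ATF4 list, 1 of 8 of amino acid transporters, 3 of 12 of aminoacyl-tRNA synthetases, 0 of 13 of serine and one-carbon genes and 2.54% of all 9393 promoters of the same length, with both strands searched.

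Trib3, a pseudokinase induced by ATF4, stood at 4.1, 3.38, 3.06 and 2.49 CPM unstimulated, at 18.6, 20, 18.9 and 18.7 CPM with XCT790 and at 3.22, 9.82, 3.8 and 3.31 CPM stimulated without it. The XCT790 libraries were above all others, and the difference from stimulated cells was 3.82-fold (log2 1.94, SE 0.29, adjusted p = 0.00018). Gpt2, a mitochondrial alanine aminotransferase, stood at 10.9, 6.22, 12.6 and 12 CPM with XCT790 and at 1.82, 3.03, 2.45 and 2.49 CPM without it (4.28-fold higher, adjusted p = 2.2e-05). Slc6a9, a glycine transporter, was 3.95-fold higher, at 10.3, 7.93, 12.6 and 13.8 CPM against 1.99, 4.51, 2.65 and 2.22 CPM (adjusted p = 2.5e-05). Chac1, which breaks down glutathione, was 6.28-fold higher, at 5.5, 3.32, 6.21 and 7.06 CPM against 0.59, 1.85, 0.6 and 0.567 CPM (adjusted p = 0.00062). The XCT790 libraries of Gpt2, Slc6a9 and Chac1 lay above all 4 libraries stimulated without it. For Gpt2 and Slc6a9 the naming rule required this. Trib3 met the same rule, but it is also a set example of its list. Asns, asparagine synthetase, was 16.9-fold above unstimulated cells with XCT790, at 20.7, 24.8, 25.2 and 33.2 CPM, and was not called against stimulated cells (log2 0.54, adjusted p = 0.084), but it was called with the block (adjusted p = 0.0029).

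Pck2 and Maged1 stayed near their unstimulated levels under XCT790. Both genes and Sec24d were lower in cells stimulated alone than with XCT790. Pck2, the mitochondrial phosphoenolpyruvate carboxykinase, stood at 31.5, 40.7, 35.3 and 41.4 CPM unstimulated, at 47.2, 26.2, 53.1 and 45.6 CPM with XCT790 and at 9.07, 16.2, 10.7 and 11.8 CPM without it. Its XCT790 and unstimulated libraries overlapped (log2 0.21, adjusted p = 0.31), and the difference from stimulated cells was 3.62-fold (log2 1.85, SE 0.20, adjusted p = 1.1e-06). Sec24d, a coat protein of vesicles that leave the endoplasmic reticulum, stood at 31.3, 26.3, 36.8 and 34.9 CPM with XCT790 and at 6.44, 9.33, 9.65 and 10.7 CPM without it (log2 1.84, SE 0.16, adjusted p = 1.5e-08). Maged1, a MAGE family protein, was 3.02-fold higher than in cells stimulated alone (adjusted p = 0.00053) and was at 11.5 ± 3.69 CPM unstimulated and 10 ± 1.19 CPM with XCT790. For Pck2, Sec24d and Maged1 the naming rule required XCT790 libraries that lie above those of cells stimulated alone.

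Some lipid genes were also higher with XCT790, beside 6.22% of all genes. Of 26 cholesterol genes 4 were higher, among them Abca1, Abcg1 and Srebf2, and of 13 fatty acid synthesis genes 4 were higher (Scd2, Acsl3, Srebf1 and Fads1). Scd2, a fatty acid desaturase, stood at 144, 79.5, 191 and 165 CPM with XCT790 and at 38.5, 36.1, 76.4 and 85 CPM without it (log2 1.29, SE 0.25, adjusted p = 0.0013), with 1 pair of libraries overlapping. Srebf1, a regulator of lipid synthesis, was 1.58-fold higher (adjusted p = 4.9e-06). Abca1 stood at 24.5, 41, 36.9 and 30.9 CPM unstimulated, at 3.63, 3.73, 6.39 and 4.45 CPM with XCT790 and at 0.537, 1.42, 1.25 and 0.785 CPM without it. The 3 groups did not overlap, and Abca1 was 4.62-fold higher with the inhibitor than without it (adjusted p = 0.0024). Cpt1a lay likewise between the groups, 1.72-fold above cells stimulated alone (adjusted p = 0.0058).

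Members of other lists were higher as well, to be read beside the 6.22% of all genes that were called higher. Of 27 lysosome and autophagy genes 7 were higher, a count that lay between 2 and 4 without XCT790 replicate 1, 2 or 4 or stimulated replicate 1, 3 or 4. At 2, without XCT790 replicate 2, the share was near that of all genes. Of 22 genes of endoplasmic reticulum folding 5 were higher, and 3 without XCT790 replicate 3 or 4 or stimulated replicate 1 or 2. Of 18 p53 targets and apoptosis genes 4 were higher (Trp53inp1, Bcl2l11, Sesn1 and Trp53) and 1 was lower (Bid), with 3 lower without XCT790 replicate 2 and 0 without XCT790 replicate 4.

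**Figure D4:**
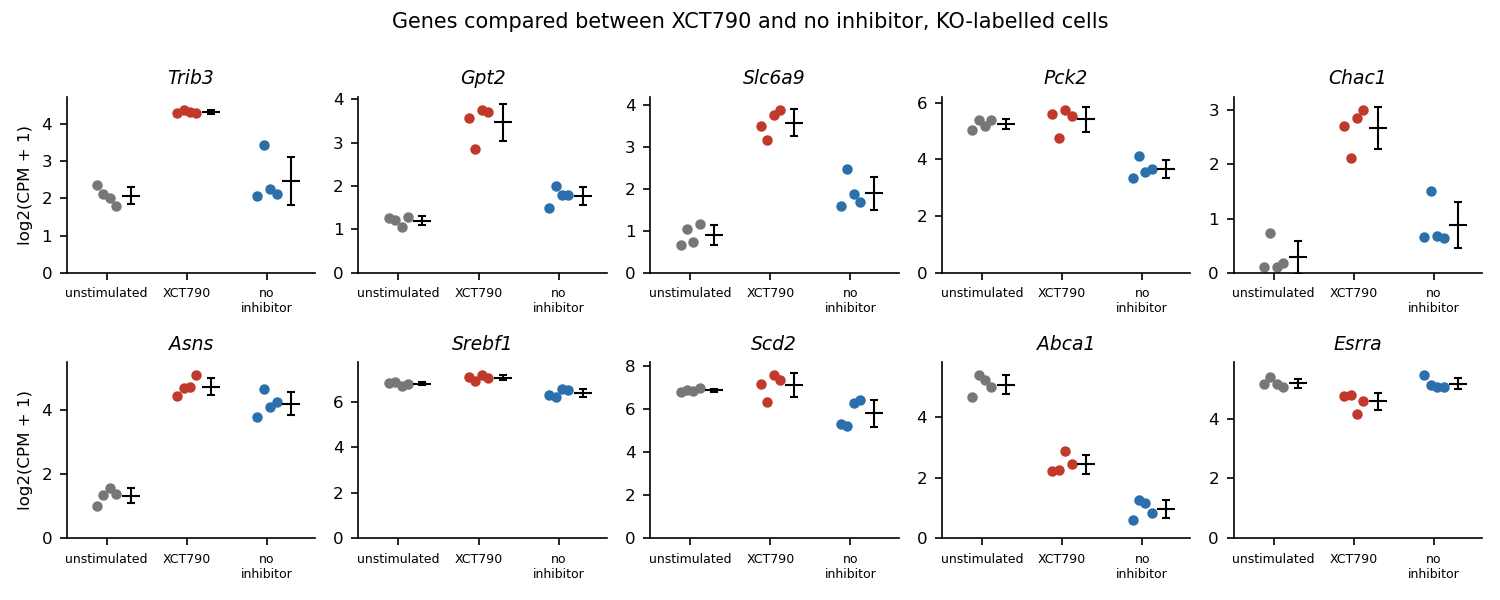
Levels of 10 genes in each KO-labelled library as log2(CPM + 1), in unstimulated cells (grey), cells stimulated with XCT790 (red) and cells stimulated without an inhibitor (blue), with mean and SD of 4 libraries. Trib3 is at 18.6 to 20 CPM in the 4 XCT790 libraries and at most 9.82 CPM in the others, Pck2 is low only in the blue group, and Esrra is lowest in the red group.

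The same change from unstimulated to XCT790-stimulated cells was set against that of WT libraries by testing the difference of the 2 changes. At an adjusted p under 0.05 this difference was called for 800 genes (6.49%): 618 (5.01%) had a higher change in KO-labelled cells and 182 (1.48%) a lower one. The counts were 347 and 309 when only the 16 libraries contrasted were fitted, 319 and 287 under library totals, and 1599 and 517 with the replicate block. Single libraries moved the higher count to between 278 and 411 when left out (KO-labelled unstimulated replicates 1 and 3, KO-labelled XCT790 replicates 2 and 4, WT unstimulated replicate 1, WT XCT790 replicates 1, 3 and 4) or to 932 (WT unstimulated replicate 2). The lower count was 112 without WT unstimulated replicate 3, 105 without WT XCT790 replicate 1 and 106 without WT XCT790 replicate 3. All WT libraries carry lower library numbers than the KO-labelled ones, so genotype and library order cannot be told apart. Among unstimulated libraries, summed myeloid markers were 4260 ± 975 CPM with the WT label and 2070 ± 805 CPM with the KO label (SD, n = 4 each) and 22.1 ± 4.93 and 39.7 ± 13.5 CPM with XCT790, and their part in these differences was not tested.

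The largest differences by the naming rule were Itgb5, Tgfbi and Lpcat2 on the higher side and Bdh2, Eea1 and Chst2 on the lower side. Itgb5, an integrin subunit, changed by -8.50 in WT and -4.44 in KO-labelled cells on the log2 scale (difference 4.06, adjusted p = 0.0012). Tgfbi, an extracellular matrix protein, had a difference of 3.68 (adjusted p = 0.03), which was not called without XCT790 replicate 4 (adjusted p = 0.116) or without WT XCT790 replicate 1, 3 or 4 (0.068, 0.0688 and 0.0658). Lpcat2, a phospholipid enzyme, had a difference of 3.67 (adjusted p = 0.012; 0.0598 without replicate 2 in all KO-labelled groups). These 3 genes stood at 30.2, 30.2 and 15.5 CPM unstimulated and at most 1.38 CPM on average with XCT790 in KO-labelled cells. The differences are in the size of the log2 fall. Whether the genotypes differed in the starting or the final level was not tested. Bdh2, a hydroxybutyrate dehydrogenase, rose by 8.27 in WT and 4.32 in KO-labelled cells (difference -3.96, adjusted p = 0.0045). Chst2, a sulfotransferase, rose by 3.50 and 1.16 (difference -2.34, adjusted p = 0.00027). Eea1, an endosome protein, changed by 2.11 in WT and by -0.38 in KO-labelled cells, where it was not called (difference -2.49, adjusted p = 0.018).

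Activation genes with a smaller change in KO-labelled cells were found among receptors and NR4A genes. Of 22 activation receptors 7 had a lower change and 1 a higher one, and of 34 activation transcription factors 6 and 1. Lag3 changed by 2.27 in WT and by 0.35 in KO-labelled cells (difference -1.92, adjusted p = 0.0015), and Pdcd1 by 1.90 and 0.03 (difference -1.87, adjusted p = 0.0046). Nr4a2 and Nr4a3 rose in both genotypes with differences of -2.18 (adjusted p = 0.0032) and -1.18 (adjusted p = 0.006). Tnfrsf9 and Irf4 rose in both with differences of -0.93 (adjusted p = 0.0056) and -0.75 (adjusted p = 0.009). Zbtb32 changed by 1.30 in WT and -0.32 in KO-labelled cells (difference -1.62, adjusted p = 0.011), and its KO-labelled change was called lower with the block (adjusted p = 0.017). On the higher side, Trib3 changed by 0.79 in WT and 2.54 in KO-labelled cells (difference 1.75, adjusted p = 0.011), and Prf1 fell by less in KO-labelled cells (difference 1.44, adjusted p = 0.0023). Of 78 cytosolic ribosomal protein genes 27 had a higher change (median 0.76 against 0.12 for all genes). The medians of ribosome biogenesis and mitochondrial ribosomal proteins were -0.03 and 0.20.

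**Figure D5:**
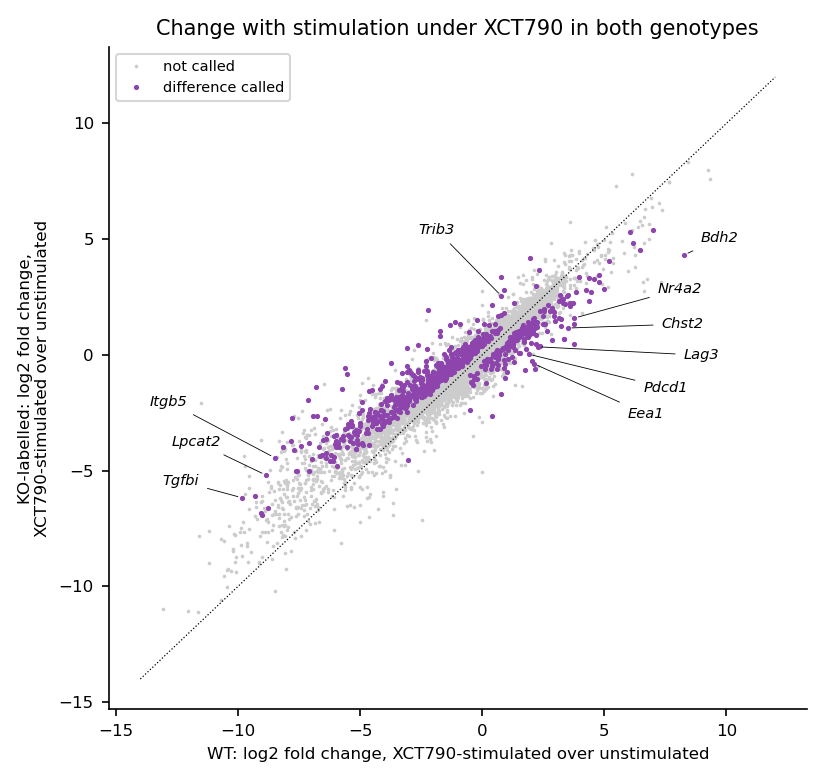
Log2 fold change between XCT790-stimulated and unstimulated cells of each tested gene in WT (horizontal axis) and KO-labelled cells (vertical axis), with the line of equal change. Purple points are the 800 genes whose difference was called; Itgb5, Tgfbi and Lpcat2 lie above the line among genes that fell, and Bdh2, Nr4a2, Chst2, Lag3, Pdcd1 and Eea1 lie below it.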

How the data were processed

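Poly(A)-selected RNA from CD4+ T cells was sequenced in 32 libraries, 4 in each of 8 groups. The values are raw read counts per gene as deposited, for 24302 genes and 5 summary lines per library. Per the submitters' processing notes, the authors used Trimmomatic 0.36, HISAT2 2.1.0, SAMtools and HTSeq 0.9.1 with the mm10 genome, and R 3.4.4 with DESeq2 1.18.1. Their settings, annotation and strand mode are not given in the sources used here, so overlapping and antisense genes cannot be told apart. The summary lines were left out of library sizes: no-feature reads were 5.31 to 13.3% and ambiguous reads 1.1 to 2.32% of the listed total. Multigene families such as ribosomal proteins may lose reads to near-identical copies.

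Counts were fitted with edgeR 4.0.16 (R 4.3.3) by the robust quasi-likelihood F test on all 32 libraries, which share 1 estimate of spread, after TMM scaling and the default low-count filter, which kept 12332 genes. P-values were adjusted by Benjamini-Hochberg over all tested genes and called under 0.05, and every adjusted p printed is from this test unless another setting is named. SE is the absolute log2 fold change divided by the square root of F. The 8 main libraries held 17.5 to 21.2 megacounts. The fit was tested on simulated data in which few genes changed, equally in both directions. That test cannot show how the scaling behaves where most genes change, as they do here. Alternatives were other scalings, no low-count filter, DESeq2 1.42.0, limma-voom (limma 3.58.1), fewer groups in the fit, a replicate block, and each replicate left out.

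The replicate block comes from library numbers in the titles, where each run of 4 consecutive numbers holds 1 library of each treatment. The labels do not say what a run shares. Deviations from the group means correlated by 0.22 to 0.41 between same-numbered unstimulated and XCT790 libraries and by 0.59 to 0.8 between stimulated and XCT790 libraries, so the numbers were taken as pairing them.

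Named genes were the NR4A genes and Esrra, the 8 largest rises and 8 largest falls against unstimulated cells and the 6 largest of each sign against stimulated cells (called, at least 10 CPM in the higher group, libraries not overlapping), the 3 largest genotype differences of each sign (called, at least 10 CPM in 1 group) and set examples of each list. Some genes that this rule names are not reported here. Other list members are named after their values were seen. Libraries, members and lists were chosen with earlier results of these data known. Promoter sequences are from RefSeq (GRCm38.p6): 180 of 224 named genes had an entry.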

Additional observations from a re-analysis of the deposited data

Results flagged for a closer look

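Each printed gene and summed marker list was checked for a library far from the other three of its group by Dixon's criterion, the gap to the nearest library over the group's range. Over 386 gene-by-group or list-by-group sets of 4 KO-labelled libraries there were 54 such flags, where chance flags about 1 in 20 groups, and 32 of the 54 fell on replicate 2. No explanation was tested.

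In the KO-labelled unstimulated group replicate 2 was the lowest for Tnfaip3 (116 CPM) and Il7r (359 CPM) and the highest for Mx1 (4.61 CPM), Chac1 (0.658 CPM) and summed CD8 T cell markers (71.3 CPM). Replicate 1 was the lowest for Il2 (0.743 CPM), Irf7 (69.1 CPM) and Zbtb32 (8.09 CPM). Replicate 3 was the highest for Crabp2 (0.165 CPM) and Xcl1 (2.93 CPM), and replicate 4 for Nr4a3 (14.3 CPM) and Eif4e (69.6 CPM).

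In the XCT790 group replicate 2 was the highest for the p53 targets Cdkn1a (261 CPM), Ccng1 (673 CPM) and Bbc3 (43.8 CPM). The same library was also the highest for Tfrc (939 CPM), Ccl4 (183 CPM), Pdcd1 (141 CPM), summed CD8 T cell markers (50.3 CPM), summed erythroid and platelet markers (26.9 CPM), Mrc1 (0.178 CPM), Slco2b1 (0.0592 CPM) and Clec4a3 (0.0592 CPM). It was the lowest for Hmgcs1 (165 CPM) and Hfe (0 CPM, where depth limits the comparison). Replicate 3 was the highest for Ncl (2770 CPM) and the lowest for Cycs (51 CPM) and Atp5b (2030 CPM), replicate 4 was the highest for Tnfrsf9 (474 CPM) and Gzmb (31.4 CPM), and replicate 1 was the lowest for Cpt1a (19.8 CPM).

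In the group stimulated without an inhibitor replicate 2 was the highest for Cdkn1a (315 CPM), Ccng1 (805 CPM), Bbc3 (30.7 CPM), Tfrc (1520 CPM), Xcl1 (220 CPM), Ccl4 (404 CPM), Isg20 (19.1 CPM), Trib3 (9.82 CPM), Zbtb32 (26.1 CPM), Chac1 (1.85 CPM), Atf4 (533 CPM), summed B cell markers (801 CPM) and summed erythroid and platelet markers (228 CPM), and the lowest for Hspa5 (1310 CPM). Replicate 1 was the highest for Esrra (42.9 CPM), Mrpl12 (511 CPM), Phgdh (409 CPM), Mrc1 (1.07 CPM) and Slco2b1 (0.107 CPM) and the lowest for Tnfaip3 (61.1 CPM) and summed plasma cell markers (1190 CPM). Replicate 4 was the highest for Itgb5 (1.48 CPM) and Cd163 (0.0436 CPM).

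The change from unstimulated to XCT790-stimulated cells differed between genotypes, by the test of the difference itself, for 25 printed genes, 13 with a higher and 12 with a lower change in KO-labelled cells. The log2 differences were 4.06 for Itgb5, 3.68 for Tgfbi, 3.67 for Lpcat2, 1.95 for Hmox1, 1.75 for Trib3, 1.55 for Irf7, 1.49 for S1pr1, 1.44 for Prf1, 1.29 for Ddit3, 1.23 for Maged1, 0.89 for Cpt1a, 0.72 for Rps6 and 0.70 for Sec24d. On the lower side they were -3.96 for Bdh2, -2.49 for Eea1, -2.34 for Chst2, -2.18 for Nr4a2, -1.92 for Lag3, -1.87 for Pdcd1, -1.62 for Zbtb32, -1.18 for Nr4a3, -0.93 for Tnfrsf9, -0.75 for Irf4, -0.46 for Ccnd2 and -0.42 for Hspa5. The calls for Ccnd2, Cpt1a, Ddit3, Hmox1, Hspa5, Irf7, Maged1, Rps6, S1pr1, Sec24d and Tgfbi were lost when at least 1 single library was left out.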

How the results depend on the processing

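Against unstimulated cells, scaling set the split of calls: 50.1% of called genes were higher with TMM, 40.3% with upper-quartile factors and 38.3% with library totals (stimulated alone: 48.1% and, with library totals, 37.5%). Of 198 named genes called there, 19 lost their call under at least 1 alternative, and Srebf1 reversed under library totals (log2 -0.06). Of 43 list medians, with cell type lists included, 41 moved by more than the spread between replicates under at least 1 alternative, and 1 reversed. The median of fatty acid oxidation was -0.06 under library totals. Leaving out single libraries gave 4656 to 4769 higher and 4589 to 4904 lower genes, a rise of Nr4a1 of 1.45 to 1.7, and for cells stimulated alone 4657 to 4828 higher and 5031 to 5251 lower genes. The contrast with stimulated cells was the least stable: 767 higher and 626 lower genes became 140 and 100 with only the groups contrasted and 1363 and 1279 with the replicate block, DESeq2 called 1106 lower, and single libraries left out gave 443 to 780 higher and 306 to 742 lower. The higher share of its calls was 55.1%, and 41.4% with DESeq2 size factors in edgeR, 44.4% without a low-count filter and 40.8% with DESeq2. Of its 60 called named genes 41 lost their call somewhere, mostly with only the groups contrasted, so that fewer libraries estimated the spread. By the same measure as above, 12 of its 43 list medians moved and 0 reversed. The genotype difference gave 319 higher and 287 lower genes under library totals, 347 and 309 with only the groups contrasted, 1599 and 517 with the replicate block, 311 lower with DESeq2, and 278 to 932 higher and 105 to 258 lower with single libraries left out. Its higher share of 77.2% was 52.6% and 52.9% under the first pair of settings. Of 34 named genes called for the genotype difference, 19 lost their call under at least 1 alternative. For 16 of these the call was lost under a setting other than leaving out a replicate. Without replicate 2 in all KO-labelled groups the counts were 4679 and 4790 against unstimulated cells, 690 and 622 against stimulated cells, and 466 and 206 for the genotype difference. Where no other value is printed beside a gene, the replicate block changed no call that the report prints for these contrasts. The causes of these shifts were not tested. Genes near the floor of 3 counts, such as Il3, have folds that depth limits.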
